A study of Drosophila melanogaster with 2 samples.

Results

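The genes that encode the protein factors of translation were examined for peaks of btn-eGFP in Drosophila melanogaster embryos. They were taken from the gene annotation by name: every protein-coding gene whose symbol begins with eIF (initiation factor), eEF (elongation factor) or eRF (release factor), together with pAbp, the poly(A) binding protein gene, and Rack1. The rule found 56 of 13986 protein-coding genes. Of these, 45 had a summit of the deposited candidate list of the pooled replicates within 1 kb of an annotated transcription start site (TSS), and 13 had a summit of the authors' optimal list there. Among the other 13930 protein-coding genes, 8617 had such a candidate and 1498 an optimal summit.

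The data are chromatin immunoprecipitation and sequencing (ChIP-seq) with an antibody against GFP, made to map where Buttonless (btn), a homeodomain protein, lies on the genome. There was 1 group of 2 biological replicates, numbered 2 and 3 in the labels, of mixed-sex whole embryos collected 0 to 14 hours after laying. Both came from 1 transgenic line that stably expresses btn joined at its C terminus to GFP, so every sample carries the transgene, and no untagged line was analysed here. Each replicate is a biosample of its own, per the labels, and its chromatin was sonicated to 200 to 800 bp; whole embryos mix many cell types, and peak lists hold no expression values against which the tissue could be checked.

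A candidate is a region that the authors passed to an irreproducible discovery rate (IDR) analysis, and an optimal peak is one that the IDR step kept. Each replicate's list and the pooled list hold 30000 candidates. The optimal list holds 2153 regions, which are the 2153 pooled candidates of highest signal, with values from 70.5 to 1220.2. The signal is the authors' own value per region and has meaning only within its list, so regions are given by their rank in a list, with rank 1 the strongest. The depth of sequencing is unknown. A peak shows where fragments were recovered with the GFP antibody, and it is not shown that btn itself binds there or that the gene beside it changes its expression.

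Translation starts when eIF4E, eIF4G and the helicase eIF4A prepare the capped end of an mRNA, while eIF2 brings the initiator tRNA to a small ribosomal subunit held by the large complex eIF3. eIF1, eIF1A and eIF5 guide the choice of the start codon, eIF5B joins the subunits, elongation factors then move the ribosome along the message, and release factors end the chain at a stop codon. Most of these proteins are made in every growing cell, and early embryos depend on maternal supplies of them. A few copies of the genes in flies are known for restricted expression, several of them in the male germ line.

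Optimal summits lay within 1 kb of a TSS of 13 translation factor genes, from every functional class except the release factors and the restricted copies. At 3 of the 13 the TSS of another gene was nearer, among them eIF2Bbeta, the only one of its class. These 13 were 28.9% of the 45 factor genes with a candidate (exact 95% binomial interval 16.4 to 44.3%, which covers counting of genes only). Other protein-coding genes had an optimal summit in 1498 of 8617 cases, or 17.4% (16.6 to 18.2%), and over all 8662 genes with a candidate the share was also 17.4%. The interval of the factor genes includes that background. Whether it did depended on the setting. Counted over all 56 factor genes the share was 23.2% (13 to 36.4%), against 10.8% of all protein-coding genes. No optimal list of a single replicate was used. In its place stood the strongest candidates of that replicate, as many as the optimal list holds. The share was then taken of genes with a candidate in the same replicate. From replicate 2 alone (without replicate 3) this share was 32.6% (15 of 46, 19.5 to 48%), against 17.7% of other genes. From replicate 3 alone it was 29.3% (12 of 41, 16.1 to 45.5%), against 18.2%. A higher share is therefore not established for these genes.

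**Figure D1:**
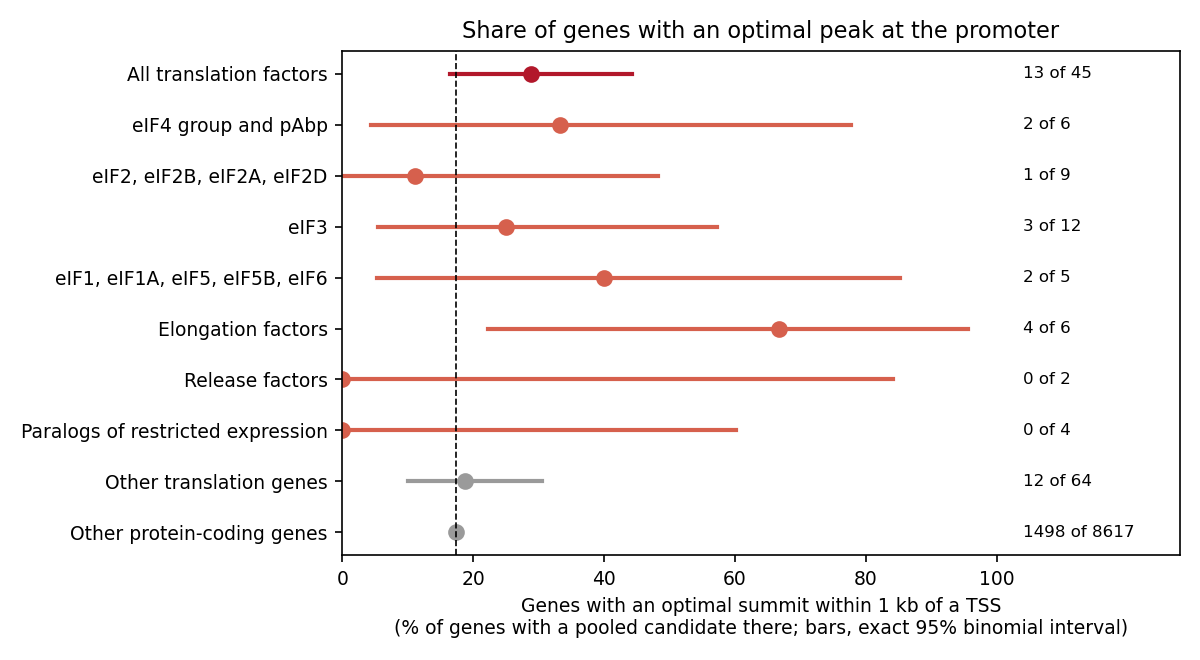
Share of genes whose promoter region (1 kb on each side of a TSS) held an optimal summit, in percent of genes with a pooled candidate there, for all translation factors, for their classes (Rack1 alone is not drawn), for other translation genes and for other protein-coding genes. Points are shares, bars exact 95% binomial intervals, the dashed line the share of other protein-coding genes (17.4%), and the numbers at the right the counts; the bar of all translation factors runs from 16.4 to 44.3% and crosses the line, and the bar of the elongation factors starts at 22.3%.

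The classes differed in their counts, but each holds few genes. Elongation factors had an optimal peak in 4 of 6 cases (66.7%, exact interval 22.3 to 95.7%), the factors of start codon choice and subunit joining (eIF1, eIF1A, eIF5, eIF5B and eIF6) in 2 of 5 (40%, 5.27 to 85.3%), and the eIF4 group with pAbp in 2 of 6 (33.3%, 4.33 to 77.7%). eIF3 subunits had one in 3 of 12 (25%, 5.49 to 57.2%) and the carriers of initiator tRNA with their exchange factor in 1 of 9 (11.1%, 0.281 to 48.2%). Neither of the 2 release factor genes had one, and none of the 4 restricted copies with a candidate did, counts that allow shares of up to 84.2% and 60.2%. Rack1, a scaffold protein on the small ribosomal subunit, had one. Without the restricted copies the share of all factors was 31.7% (13 of 41, 18.1 to 48.1%), against the same 17.4%. No genes of restricted expression were left out of that background, so the sets differ in this respect. The group of restricted copies was put together by hand, with no expression table, and leaving it out is what lifts the interval above 17.4%. The intervals of all classes overlap each other, and of these intervals only that of the elongation factors and that of all factors without the restricted copies lie above 17.4%; the classes were drawn up with earlier results of these data known.

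**Figure D2:**
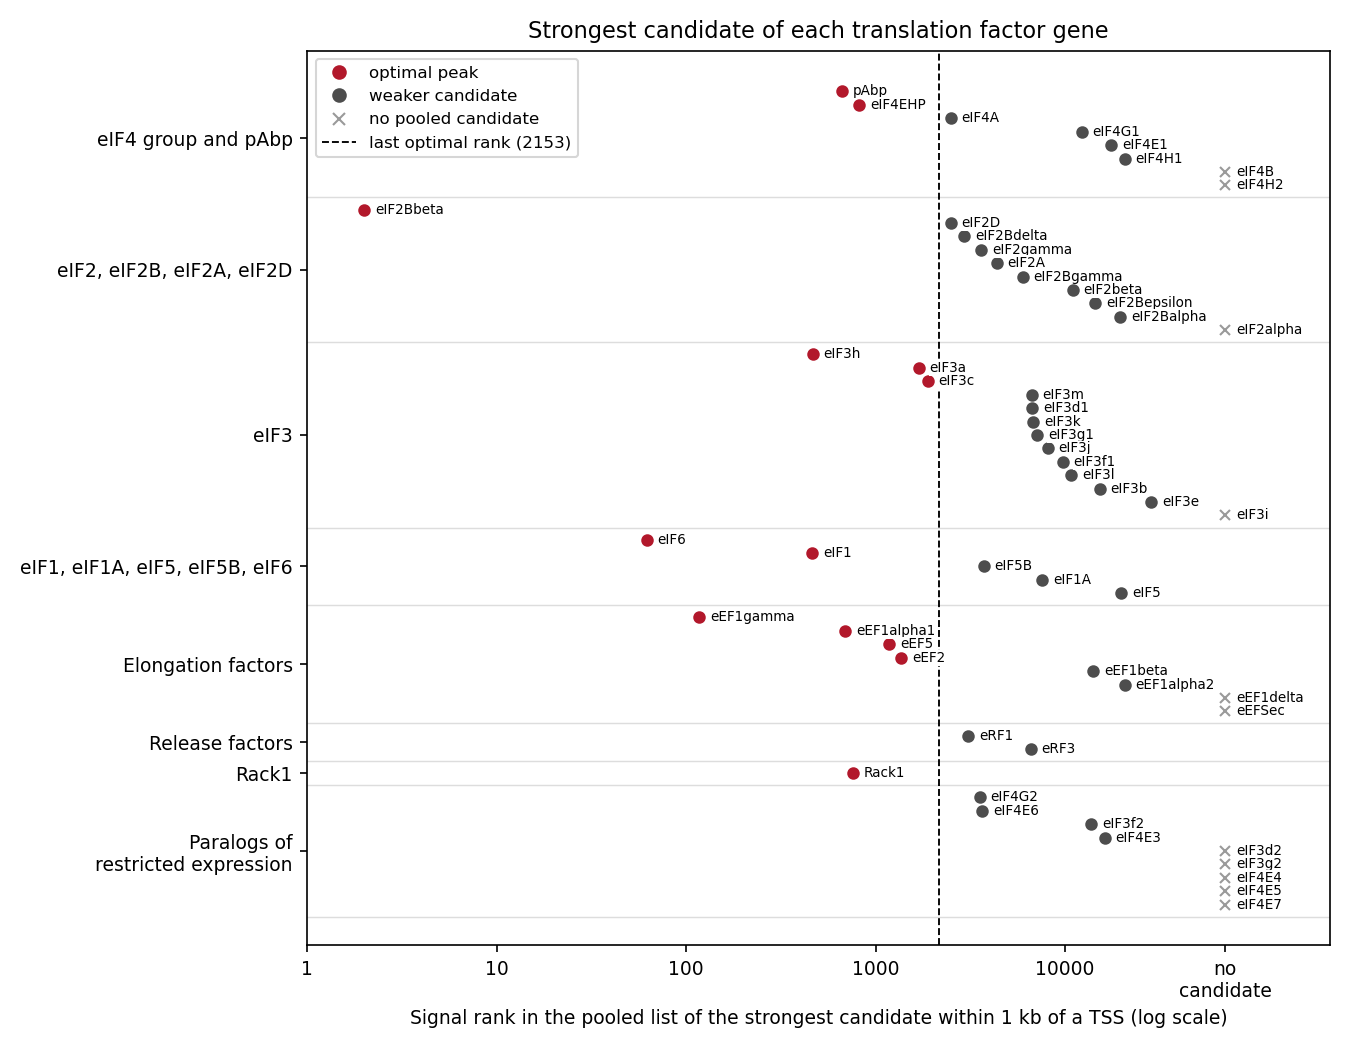
Signal rank in the pooled list (log scale, strongest at the left) of the strongest candidate within 1 kb of a TSS of each of the 56 genes, grouped by role. Red points are optimal peaks, grey points weaker candidates and crosses genes with no pooled candidate; the dashed line is the last optimal rank, 2153. eIF2Bbeta stands at rank 2, and 11 genes have no candidate.

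The strongest site belonged to eIF2Bbeta, a subunit of the factor that recharges eIF2 with GTP. Its peak (dm6 X 2703686 to 2704082) was second of all 30000 pooled candidates, with a signal of 1194. It ranked 1 in replicate 2 (signal 667) and 2 in replicate 3 (signal 531). Its summit lay 701 bp upstream of eIF2Bbeta but 18 bp upstream of the TSS of Ugalt, the gene of a UDP-galactose transporter that runs the other way. The nearer of these promoters is therefore that of Ugalt. At eEF1gamma, a subunit of the exchange factor of the elongation GTPase, the summit was 5 bp upstream of the TSS, in a region (3R 29220023 to 29220243) that ranked 117 with a signal of 288. It ranked 170 in replicate 2 (signal 125) and 83 in replicate 3 (signal 163). At eIF4EHP, a cap-binding protein that does not bind eIF4G and is known in fly embryos for keeping maternal mRNAs silent, the peak (3R 24108857 to 24109266) ranked 820 with a signal of 119. It ranked 782 in replicate 2 (signal 62.1) and 987 in replicate 3 (signal 56.7), and the summit was 102 bp upstream of the TSS. The DNA under these 3 summits, from the RefSeq sequence of Release 6 (dm6), is shown because they are the highest ranked site, the highest ranked one within 100 bp of a factor gene's TSS and the strongest one of a cap-binding protein. The eEF1gamma and eIF4EHP stretches run from 130 bases before to 20 bases from the TSS on the strand of the gene. The eIF2Bbeta stretch runs 130 bases from the start of Ugalt towards eIF2Bbeta. Capitals mark the word TATCGATA, described with the other words after the peaks.
eIF2Bbeta and Ugalt, chrX:2703842-2703971, plus strand: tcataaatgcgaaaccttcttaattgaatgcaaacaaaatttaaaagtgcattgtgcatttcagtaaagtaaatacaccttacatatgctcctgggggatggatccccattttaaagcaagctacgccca
eEF1gamma, chr3R:29220042-29220191, plus strand: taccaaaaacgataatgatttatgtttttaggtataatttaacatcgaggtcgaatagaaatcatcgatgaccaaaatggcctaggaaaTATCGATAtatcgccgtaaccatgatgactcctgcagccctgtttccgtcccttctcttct
eIF4EHP, chr3R:24108941-24109090, minus strand: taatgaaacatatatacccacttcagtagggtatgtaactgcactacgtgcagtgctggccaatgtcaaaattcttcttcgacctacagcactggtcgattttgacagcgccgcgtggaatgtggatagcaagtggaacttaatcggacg

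Within the eIF4 group the other optimal peak was that of pAbp, whose protein binds the poly(A) tail and, through eIF4G, the capped end. Its summit lay in an intron, 487 bp downstream of the nearest TSS (2R 18141657 to 18142066), in a gene that also holds 3 snoRNA genes (snoRNA:Psi18S-1347a, snoRNA:Psi18S-1347b and snoRNA:Psi18S-1347c). It ranked 663 with a signal of 134, 670 in replicate 2 (signal 67.1) and 742 in replicate 3 (signal 65.5). eIF4A, the helicase that unwinds leader sequences, came next but fell short of the optimal list: its candidate, 31 bp downstream of a TSS, ranked 2494 with a signal of 64.9. The cap-binding protein gene eIF4E1 and the scaffold gene eIF4G1 had weak candidates at ranks 17542 and 12278, and eIF4H1 was at 20637. eIF4B and eIF4H2 had no candidate. The cap-binding repressor eIF4EHP thus had an optimal peak while eIF4E1 did not. A second optimal peak of eIF4EHP, at rank 936 (signal 112), lay in one of its introns 9786 bp from the TSS.

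Among the carriers of initiator tRNA, eIF2Bbeta was alone in having an optimal peak. The other subunits of the exchange factor were spread over the weaker ranks: eIF2Bdelta at 2941, eIF2Bgamma at 5997, eIF2Bepsilon at 14464 and eIF2Balpha at 19607. Of the 3 subunits of eIF2 itself, eIF2gamma, the GTP-binding one, ranked 3605 and eIF2beta 10969. eIF2alpha, whose phosphorylation slows translation under stress, had no pooled candidate, and its sole entry was rank 19496 in replicate 3. eIF2D, a factor that can place initiator tRNA without eIF2, was 3 ranks behind eIF4A at 2497 (signal 64.8, 136 bp upstream), and eIF2A ranked 4356. Optimal summits lay nearby but beyond 1 kb for 3 of these genes: rank 771 at 1283 bp upstream of eIF2Bgamma, rank 788 at 2573 bp downstream of the eIF2beta TSS in an intron of ver, and rank 1569 at 3377 bp downstream of an eIF2A TSS in an intron of CG32448.

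eIF3 is the largest initiation complex, and 3 of its subunits had an optimal peak. eIF3h had the strongest, at rank 465 with a signal of 158 (2L 5052408 to 5052524), and ranked 398 in replicate 2 (signal 86.3) and 647 in replicate 3 (signal 69.8). The summit was 307 bp downstream of a TSS in an intron, and an overlapping optimal region at rank 1181 (signal 99.7) had its summit in a coding exon 105 bp downstream. eIF3a, a scaffold subunit, was at rank 1688 with a signal of 81.2 (3R 4433728 to 4434137), 2071 in replicate 2 (signal 36.5) and 1376 in replicate 3 (signal 48.6), 38 bp upstream of its TSS and 32 bp upstream of that of CG1074. eIF3c, the other scaffold subunit, was at rank 1885 with a signal of 75.9 (2R 17665421 to 17665830), 52 bp upstream. It ranked 730 in replicate 2 (signal 64.4) and 6015 in replicate 3 (signal 24.6), the widest gap between replicates among the 13 genes. The other eIF3 subunits with a candidate ranked from 6686 (eIF3m) to 28611 (eIF3e), and eIF3i had none in any list. An optimal summit at rank 1790 lay near eIF3g1 but 1394 bp from its TSS.

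Of the factors of start codon choice and subunit joining, eIF6 and eIF1 had optimal peaks. eIF6 binds the large ribosomal subunit and keeps it from joining too early. Its peak (2R 23850279 to 23850543) ranked 62 with a signal of 389, 53 in replicate 2 (signal 216) and 74 in replicate 3 (signal 173). The summit lay 123 bp upstream of the eIF6 TSS, in an exon of the antisense RNA gene asRNA:CR45928, which starts 94 bp from the summit. eIF1, which guards the fidelity of start codon choice, had a peak at rank 464 with a signal of 158 (3L 3222927 to 3223042), 743 in replicate 2 (signal 63.7) and 380 in replicate 3 (signal 88.8). That summit was 337 bp upstream of eIF1 but 44 bp upstream of the ribosomal protein gene RpL28, and 3 snoRNA genes (snoRNA:Or-CD11a, snoRNA:Or-CD11b and snoRNA:Or-CD11c) start 463 to 888 bp from it. eIF5B, eIF1A and eIF5 ranked 3726, 7602 and 19821.

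Elongation factors gave the highest share of any class of more than 1 gene, and all 4 optimal summits lay within 100 bp of a TSS. eEF1alpha1, the ubiquitous GTPase that delivers aminoacyl-tRNA, ranked 691 with a signal of 131 (2R 11891885 to 11892294), 704 in replicate 2 (signal 65.3) and 773 in replicate 3 (signal 64.3). Its summit lay 32 bp upstream of one of its 4 TSSs, in an intron of the gene. Another 2 optimal peaks, at ranks 772 and 1220, lay 1444 and 1228 bp upstream in an intron of ERp60. eEF5, the factor that relieves ribosomes stalled at proline runs, ranked 1180 with a signal of 99.7 (2R 24057550 to 24057959), 883 in replicate 2 (signal 58.4) and 1348 in replicate 3 (signal 49.2), 43 bp upstream. eEF2, the translocase, ranked 1364 with a signal of 91.5 (2L 21681849 to 21682258), 1433 in replicate 2 (signal 44.7) and 1586 in replicate 3 (signal 45.2), 62 bp downstream in the 5′ UTR. With eEF1gamma, the main GTPase, a subunit of its exchange factor and the translocase all had optimal peaks. The other genes of the exchange factor did not: eEF1beta ranked 14121 and eEF1delta had no pooled candidate. The second GTPase copy, eEF1alpha2, ranked 20742, and eEFSec, the selenocysteine-specific factor, was in none of the lists.

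Rack1 had a summit 5 bp upstream of a TSS and within its annotated 5′ UTR (2L 7827046 to 7827455), at rank 756 with a signal of 126. The replicates differed there, with rank 1962 in replicate 2 (signal 37.6) and 427 in replicate 3 (signal 83.6). The release factor genes eRF1, which reads the stop codon, and eRF3, its GTPase partner, had candidates at ranks 3080 and 6598. Of the 9 restricted copies, eIF4G2 (rank 3545, signal 53.7) and eIF4E6 (rank 3667) came closest to the optimal list. The summit at eIF4E6 was 146 bp from its TSS but 84 bp from that of CG1951, in whose 5′ UTR it lay. The summit at eIF4G2 was 131 bp from its TSS and as far from that of CG33111. eIF3f2 and eIF4E3 ranked 13753 and 16234, and eIF3d2, eIF3g2, eIF4E4, eIF4E5 and eIF4E7 had no pooled candidate.

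The optimal threshold fell in a gap among the factor genes. Just inside it stood eIF3c (rank 1885), eIF3a (1688), eEF2 (1364), eEF5 (1180) and eIF4EHP (820). Just outside it stood eIF4A (rank 2494, signal 64.9), eIF2D (2497, 64.8), eIF2Bdelta (2941, 59.4), eRF1 (3080, 58) and eIF4G2 (3545, 53.7). The 32 genes with a weaker candidate had signals from 19.8 to 64.9 with a median of 36.5 and ranks with a median of 7863. Over all 45 factor genes with a candidate the median rank was 5997, against 7653 over 8617 other genes; among those with an optimal summit it was 691 over the 13 factor genes, against 978 over 1498 other genes.

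The 11 factor genes with no pooled candidate within 1 kb were eEF1delta, eEFSec, eIF2alpha, eIF3d2, eIF3g2, eIF3i, eIF4B, eIF4E4, eIF4E5, eIF4E7 and eIF4H2. These are 11 of 56, whereas 5313 of 13930 other protein-coding genes had none, a larger part. Of the 11 factor genes, 7 had no candidate in either replicate's list too, all but eEF1delta, eIF2alpha, eIF3g2 and eIF4E5. All 11 have 1 annotated TSS, whereas 8 of the 13 genes with an optimal peak have more than 1. The median number of TSSs was 2 for these 13 and also for other genes with an optimal summit. It was 1 for all factor genes and for other protein-coding genes. A gene with more TSSs has more places where a summit can be counted, and whether this bears on the counts was not tested. Gene length was similar, with a median of 1969 bp for the 13 and 1818 bp for the 11. That a promoter is not in a list does not show that the protein was absent from it.

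Both replicates held a candidate at every one of the 13 optimal sites. The replicate summits lay 0 to 115 bp from the pooled summit, with a median of 8 bp over 26 values, and the largest distance was that of eIF3c in replicate 3. Among the 2153 strongest candidates of each replicate, 12 factor genes had a summit within 1 kb of a TSS in both replicates, which is 26.7% of 45 (exact interval 14.6 to 41.9%), against 12.8% of other genes and 12.9% of all genes with a pooled candidate. These were the 13 genes without eIF3c. Replicate 2 alone had 15 such genes, adding eIF2D, eIF3c and eIF4A, and replicate 3 alone had 12, all shared with replicate 2. Of the 13, 8 were among the strongest 1000 of both replicates. The same count was not made for other genes with an optimal summit, and the 13 were chosen by high signal in the pooled list. Across the 36 factor genes with a candidate overlapping the pooled one in both replicates, ranks had a Spearman rho of 0.72. Over the 23 of these without an optimal peak it was 0.21. These are descriptions across genes measured in the same 2 libraries, and the pooled list that chose the sites holds both.

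**Figure D3:**
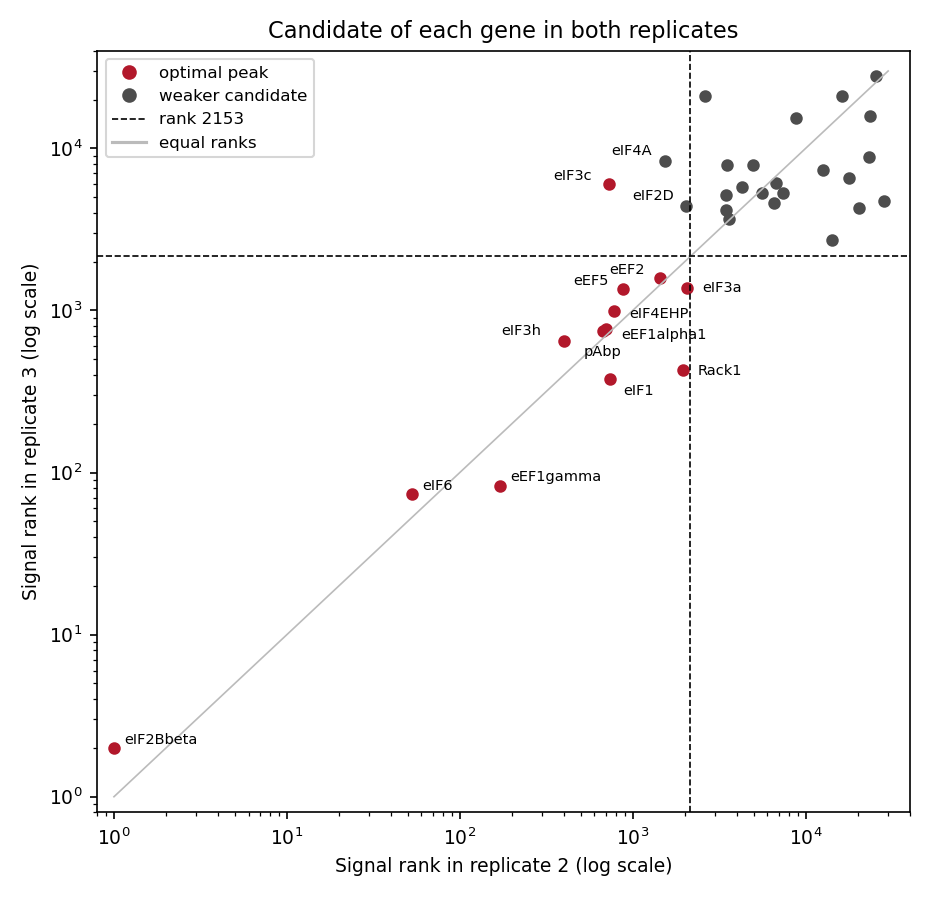
Signal rank of the candidate that overlaps the pooled one, in replicate 2 (x axis) and in replicate 3 (y axis), both on a log scale, for the 36 translation factor genes that have one in both. Red points are genes with an optimal peak, grey points genes with a weaker candidate, dashed lines rank 2153 and the grey line equal ranks. The red point of eIF3c lies above the line in replicate 3 at rank 6015, and the grey points of eIF4A and eIF2D pass the line in replicate 2 only.

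The median distance of the strongest optimal summit was 62 bp for the 13 factor genes, with a range from 5 to 701 bp, against 180 bp for 1498 other genes. The median moved with the setting: taking the nearest optimal summit of each gene, it was 62 bp, against 169.5 bp for other genes, but 102 bp, against 241 bp, within 2 kb of a TSS, 123 bp, against 190 bp, with optimal peaks at or above the median signal of their list, and 106 bp, against 174 bp, with the most upstream TSS of each gene. Within 100 bp were 7 of the 13, against 29% of other genes, and within 200 bp 9 of the 13, against 54.3%. Upstream of the nearest TSS of the gene were 10, and downstream were 3 (pAbp, eIF3h and eEF2), while 79.9% of other genes had their summit upstream, counted in the same way. The summits of Rack1 (in its 5′ UTR) and eEF1alpha1 (in its intron) count as upstream here although they lie within the gene. Weaker candidates of factor genes lay at a median of 181 bp, against 320 bp for those of other genes. The 13 summits were intergenic in 7 cases, intronic in 3, in a 5′ UTR in 2 and in a noncoding exon in 1. None of these strongest summits was in a coding exon, though the second optimal summit of eIF3h (rank 1181) was. Of the 32 weaker candidates 7 were in one, and the same count was not made for other genes.

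**Figure D4:**
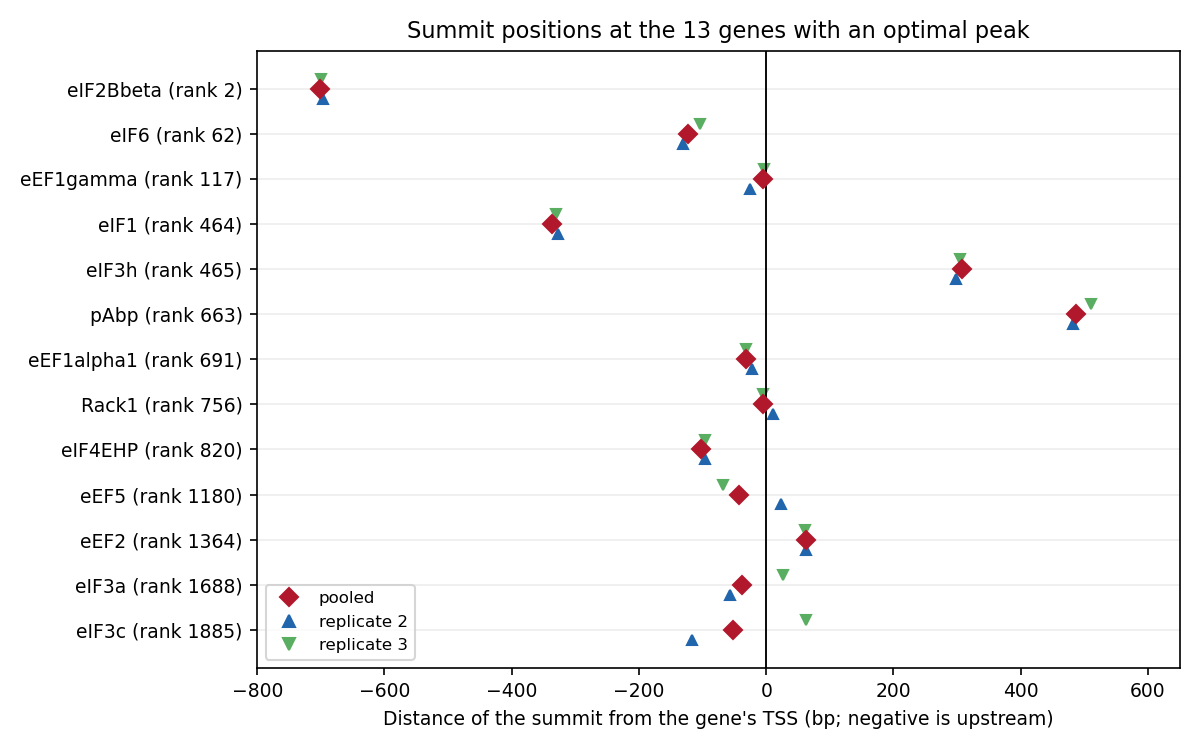
Position of the summit in bp (negative is upstream) relative to the gene's TSS nearest to the pooled summit, at the 13 genes with an optimal peak, ordered by pooled rank. Red diamonds are pooled summits, blue triangles replicate 2 and green triangles replicate 3. At eIF2Bbeta, eIF1, eIF3h and pAbp all 3 summits lie more than 200 bp from the TSS, and at Rack1, eEF5, eIF3a and eIF3c those of the replicates lie on both sides of it.

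Most of the summits could be counted for a neighbour as well. Another protein-coding gene had a TSS within 1 kb of the summit at 9 of the 13, against 56% of other genes with an optimal summit. The neighbour was nearer at 3 of them, namely Ugalt at eIF2Bbeta, RpL28 at eIF1 and CG1074 at eIF3a. At the other 6 the factor gene was nearer: mts, the catalytic subunit gene of protein phosphatase 2A, at Rack1 (399 bp), ppk29 at eEF5 (618 bp), CCHa1-R at eIF3c (558 bp), senju at eIF3h (370 bp), CG18428 at eIF4EHP (274 bp) and ytr at eIF6 (649 bp). When each summit counted only for the gene of the nearest TSS, the share was 26.3% for factor genes (10 of 38), against 14.7% for other genes. eEF1gamma, eEF1alpha1, eEF2 and pAbp shared their summit with no other protein-coding gene. Weaker candidates were shared as well. Another gene's TSS was nearer to the strongest one at eIF1A, eIF2Balpha, eIF2Bdelta, eIF2Bepsilon, eIF3b, eIF3l, eIF3m and eIF4E6, and equally near at eIF2gamma, eIF4G2 and eIF5.

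Other genes of translation and its control were read in the same way, from a list of 68 that matched the annotation. Of 64 with a candidate, 12 had an optimal summit (18.8%, exact interval 10.1 to 30.5%), against the 17.4% of all genes, so their share was near the background. In the TOR pathway list these were larp, the fly homolog of a mammalian protein that binds mRNAs of the translation machinery (rank 25, signal 529), and Thor, the eIF4E-binding repressor (rank 506, signal 152), out of 13. Among repressors and their partners 3 of 12 had one: brat (rank 156), tral (rank 548) and pum (rank 2067), of which pum ranked 25322 in replicate 2 and 1071 in replicate 3. Signal peptide and nascent chain factors had 4 of 7 (57.1%, 18.4 to 90.1%), namely Nacalpha (rank 402), Srp72 (945), Sec61alpha (1733) and Srp14 (1887). Aminoacyl-tRNA synthetases had 3 of 19: SerRS (rank 855), GluProRS (1266) and IleRS (1476). None of the 4 eIF2 kinase and stress genes and none of the 9 recycling and rescue genes had one, counts that allow shares of up to 60.2% and 33.6%. Genes of cytoplasmic ribosomal proteins, the partners of these factors on the ribosome, had one in 49 of 82 cases (59.8%, 48.3 to 70.4%), an interval that lies above that of the translation factors.

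The DNA of the factor promoters was searched for 7 words known from fly regulatory DNA. Of these, 6 were searched on both strands in the 300 bases from 250 before to 50 from the most upstream TSS and within 100 bases of the summit on each side, and none of them holds another. TATCGATA, the DNA replication-related element bound by DREF, was in the promoter of 16 of 56 factor genes (28.6%), against 1289 of 13889 other genes (9.28%). It was in 6 of the 13 with an optimal peak (46.2%: Rack1, eEF1gamma, eIF2Bbeta, eIF3a, eIF3c and eIF6), against 185 of 1498 other genes with one (12.3%). It was also in 7 of the 32 factor genes with a weaker candidate and in 3 of the 11 with none. Around the summit itself the word was found at 4 of 13 (30.8%), against 57 of 2140 other optimal summits (2.66%). Those other summits were taken at any distance from a TSS, whereas the 13 were chosen within 1 kb of one. The sets thus differ in position as well as in gene, and these effects were not separated. At eIF2Bbeta, eIF3c and eIF6 the word was in the promoter but not within 100 bases of the summit. The word lay 0 bp from the summit at eIF3a, 29 bp at eEF1gamma, 41 bp at eIF1 and 63 bp at Rack1. It lay as near, 3 bp, to the summit of eIF3f1, whose candidate ranked 9737, and 81 bp from that of eRF1. The GC content of the summit windows was also higher, with a median of 45.8% at the 13 summits (35.3 to 49.8%), against 37.8% at the other 2140. The same difference in position applies there. A word in the sequence is not a site in use, and these shares were given no test. Stretches of 30 bases around the word, on the strand of the gene, show the word near the summits of optimal peaks and, for eIF3f1 and eRF1, of weaker candidates. The summit itself lies within the stretch at eIF3a and eIF3f1, and outside it at Rack1, eIF1 and eRF1. At eIF1 the word (3L 3223045 to 3223052) lies just beyond the end of the optimal region.
Rack1, chr2L:7827303-7827332, minus strand: aaaattcaaacTATCGATAgttttgtcctg
eIF1, chr3L:3223034-3223063, plus strand: ggcagggcaacTATCGATAagcatttcgta
eIF3a, chr3R:4433915-4433944, minus strand: tcggcctgaacTATCGATAacgcagccagg
eIF3f1, chr3R:4714172-4714201, minus strand: cccacccgcacTATCGATAggcccttttct
eRF1, chr3L:20348319-20348348, plus strand: atattttaagaTATCGATAatgtcatcgga

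The TCT initiator, a start-site element of ribosomal protein and translation factor genes in flies, was read as TCTTT or CCTTT on the sense strand with its C within 10 bases of a TSS. Counting any annotated TSS, it was found in 16 of 56 factor genes (28.6%), against 6.26% of other genes, and in 6 of the 13 with an optimal peak (46.2%: Rack1, eEF1alpha1, eEF2, eEF5, eIF3c and pAbp), against 11.5% of other genes with one. At the most upstream TSS alone it was in 8 of 56 (14.3%), against 4.34%, and in 1 of the 13, eEF1alpha1 (7.69%), against 5.94% of other genes with an optimal peak. The contrast among genes with an optimal peak thus rested on counting every annotated TSS. The median number of TSSs was 2 in both groups with an optimal summit. Rack1 and eEF2 show the word a few bases after an annotated TSS, which in both genes is not the most upstream one. The stretches run from 12 bases before that TSS to 18 bases from it, with the word in capitals. Both lie wholly in annotated UTR.
Rack1 start, chr2L:7827229-7827258, minus strand: tggaaccggaactgccTCTTTttctgccag
eEF2 start, chr2L:21682099-21682128, minus strand: gctgcagcgcctcgcTCTTTcctgtcgaaa

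None of the remaining words had a higher share around the 13 factor summits than around the other optimal summits, which again include summits far from any TSS. TAATTA, the core that many homeodomain proteins recognise, was in none of the 13 summit windows, against 12.9% of the other optimal summits, and in the promoters of 15 of 56 factor genes (26.8%), against 20.4% of other genes. GAGAGAG, bound by GAGA factor, was in 0 of 13 summit windows, against 5.61%, and in 1 of 56 promoters, against 5.88%. GGTCACACT, the word of M1BP, was in 0 of 13 windows, against 1.07%, and in 3 of 56 promoters, against 6.05%. CACGTG, the E-box of Myc, was in 0 of 13 windows, against 2.34%, and in 4 of 56 promoters (7.14%; eEF2, eIF2A, eIF3f2 and eIF4A), against 4.19%. TATAAA was in 3 of 13 windows, against 27.3%, and in 26 of 56 promoters (46.4%), against 45.8%. With 13 windows, counts of 0 do not set these sites apart from shares of a few percent. No interval was computed for the TAATTA count either, so a share below 12.9% is not established for these sites.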

How the data were processed

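ChIP-seq peak lists of 2 biological replicates of btn-eGFP embryos were used, in narrowPeak layout and build dm6, per the labels: candidates from each replicate alone (2 and 3) and from both pooled, and the optimal IDR-thresholded peaks. The peak signal column, as deposited by the authors, was used to rank and describe regions within a list. Per the deposited README files, candidate lists came from alignments and a control file; aligner, caller and threshold: not given in the sources used here. No list gives read counts, so depth is unknown.

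Summits were placed from the deposited summit offset and assigned to protein-coding genes of Ensembl release 115 (BDGP 6.54) with a TSS within 1 kb. Region ends lay within the arm lengths of Release 6, and sequences came from its RefSeq FASTA. Shares have exact (Clopper-Pearson) 95% intervals from scipy 1.17.1 under Python 3.11.15. Replicate candidates were joined to pooled ones by an overlap of at least 1 bp. Assignment was tested on simulated summits. Both replicates form 1 group, so no test between groups was made; genes are not replicates. The strongest candidate within 1 kb stands for each gene.

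The genes, the role classes and the list of other translation genes (69 names, of which GCN1 was not matched; 5 spellings were adapted to the annotation) were chosen with earlier results of these data known. Named genes were those with an optimal summit, the 5 nearest on each side of the threshold, those with no candidate, the neighbours that share a summit, and list genes with an optimal summit; other members named by rank to complete a class were chosen after their values were seen. Alternatives changed the TSS distance, the peak set, the replicate, the background, the gene and TSS a summit counts for, and the peak position. The lists in dm3 were not used.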

Additional observations from a re-analysis of the deposited data

How the results depend on the processing

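The share of factor genes with an optimal summit was 28.6% with a TSS within 500 bp, 31.2% within 2 kb, 20% with optimal peaks at or above the list median of signal, 23.2% with all protein-coding genes as background, 26.3% with the nearest TSS only, 26.7% with the most upstream TSS only, and 29.3 to 32.6% with replicates left out. Other genes gave 18%, 18.4%, 9.45%, 10.8%, 14.7%, 15.7% and 17.7 to 18.2% at the same settings. With a replicate left out, the strongest candidates of the other replicate stood in for optimal peaks, in the shares and in the summit distances. Their number was that of the regions in the optimal list. The exact interval of the factor share at the setting itself lay above the share of other genes within 2 kb (from 18.7%), with the stronger peaks (from 9.58%), with all genes as background (from 13%), without replicate 3 (from 19.5%) and for the strongest candidates of both replicates (from 14.6%, against 12.8%). It included that share in the main count (from 16.4%), within 500 bp (from 15.7%), without replicate 2 (from 16.1%), with the nearest TSS (from 13.4%) and with the most upstream TSS (from 14.6%). The median summit distance of 62 bp was 57 bp within 500 bp, 102 bp within 2 kb, 123 bp with those stronger peaks, 57 bp with the nearest TSS, 106 bp with the most upstream TSS and 82 to 86 bp with replicates left out. The median rank of 5997 was 5176 within 500 bp, 4041 within 2 kb, 6656 with the nearest TSS, 6598 with the most upstream TSS and 4898 to 5146 in the single replicates' own lists. The count of 12 genes strong in both replicates ranged from 8, with the strongest 1076 candidates, to 16, with 5000. The share of other translation genes ranged from 10.9 to 26.2%. The cause of these shifts was not tested. No paired analysis was possible because there is only 1 group. Classes of 2 to 13 genes and the unknown depth limit what these counts can show.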
